A study of Mus musculus with 6 samples.

Results

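Small nuclear RNA (snRNA) genes and the many copies of them that are scattered over the mouse genome were followed in nuclear RNA of HL-1 cells, an immortal cardiomyocyte line from mouse atrium that contracts in culture. The members are all unique gene identifiers that the deposited table types as snRNA, leaving out names beginning with Snora or Scarna. There were 186 such genes among 28660 identifiers without the spike-ins, on 20 chromosomes, and no snRNA row carried an excluded name. The 2 groups were the chromatin pellet extract and the soluble nuclear extract of detergent-lysed nuclei, with 3 libraries each and 6 in all. All cells were HL-1 grown in Claycomb medium with serum, L-glutamine and norepinephrine, with no treatment or genotype that differed between the groups, and HL-1 is a single line. ERCC spike-ins, synthetic RNAs of known makeup, were added to every fraction before extraction.

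snRNAs are short, stable RNAs that pair with the message precursor and form the catalytic core of the spliceosome. U1 recognises the donor splice site and U2 the branch point, while U4, U6 and U5 arrive as a preformed tri-snRNP, in which U4 keeps U6 inactive until the spliceosome is activated. U11 and U12 take the places of U1 and U2 in the minor spliceosome, which removes a rare class of introns. RNA polymerase II makes U1, U2, U4, U5, U11 and U12, which receive a ring of Sm proteins in the cytoplasm before they return to the nucleus. RNA polymerase III makes U6, which carries an LSm ring instead. Several snRNA families have numerous copies in the genome, many of them silent.

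The deposited table holds a single FPKM value (fragments scaled to the length of the transcript and the size of the library) per fraction, in which the authors pooled the libraries. The spread between replicates is therefore unknown, no difference below has a p-value, and the depth of the libraries is not given. Folds are the log2 of pellet FPKM times 3.37 over soluble FPKM. The factor is the slope of the 82 spike-ins, and this is called the spike-in scale. Leaving the factor out gives the FPKM scale, on which each fold is 1.75 lower, so that a fold between 0 and 1.75 changes side. Spike-ins whose mean reached 0.5 FPKM scattered about the factor with an SD of 0.12 on the log2 scale (n = 47 spike-ins), and those with at least 10 FPKM with an SD of 0.09 (n = 18). This scatter is technical, and the spike-ins, of 273 to 2022 nucleotides, are longer than the members. A higher value in the pellet can mean more RNA molecules there or another spike-in amount per nucleus, which cannot be told apart. Of 10 cardiomyocyte markers 7 reached 0.5 FPKM, led by Myl7 and Tnnt2 with 1119 and 1022 soluble FPKM. Markers of other types reached it in 3 of 6 cases for fibroblasts (Col3a1 at 340.5 soluble FPKM), 2 of 5 for endothelium, 1 of 4 for immune cells and 1 of 4 for neurons.

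Only 5 of the 186 members carry a family name, namely Rnu11, Rnu12, Rnu1b1, Rnu1b6 and Rnu5g. The other 181 are predicted genes with a Gm number. RefSeq on GRCm38.p6, the assembly behind mm10, supplied a position and length for 155 members, 151 by symbol and 4 by identical coordinates. It types 124 of these as snRNA and 31 as pseudogenes. Family was not assigned to the predicted genes, since neither a product name nor a sequence was at hand. They are described by RefSeq length instead, beside the named genes of that length. Rnu6, the U6 gene named by RefSeq, is 107 nucleotides long, Rnu5g (U5) is 116, Rnu1a1 (U1) is 164, Rnu1b1 is 165 and Rnu1b6 is 166. The further lengths of 141 and 191 nucleotides are those of the members above 10000 FPKM that match none of these. Rnu6 and Rnu1a1 are not themselves among the members. An equal length does not show that a copy belongs to the family. Near-identical copies can also share fragments, and the sources used here do not say how these were divided, so the values of single copies are uncertain.

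The members made up a sizeable part of the summed FPKM of both fractions, which is no direct measure of RNA amount. On the spike-in scale they lay towards the pellet. They took 14.0% of the soluble and 14.2% of the pellet FPKM summed over all loci. Of the 168 members with a mean of at least 0.5 FPKM, 138 passed 2-fold towards the pellet (82.1%), 2 passed it towards the soluble fraction and 28 passed neither. Among all 13917 loci at that level, 31.9% were at least 2-fold higher and 10.5% at least 2-fold lower. The median log2 fold was 2.47 (quartiles 1.32 and 3.72) for the members and 0.41 for all loci tested. Over all 186 members, with no filter, 148 were higher and 2 lower (median 2.33), against 49.8% higher and 8.88% lower over all loci (median 0.99). On the FPKM scale 69 members were higher and 20 lower (median 0.71), where 9.66% of all loci tested were higher and 61.2% lower.

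The 18 members below the filter had mean values from 0.0832 to 0.496 FPKM, with 10 higher and 0 lower (median 1.27). Other short noncoding types also lay towards the pellet. Small nucleolar RNAs had 288 of 312 loci higher and 5 lower (median 3.38). Loci typed as miscellaneous RNA had 52 of 71 higher and 6 lower (median 3.60). MicroRNA loci had 73 of 108 higher and 12 lower (median 1.92). Protein-coding genes had a median of 0.26 over 11397. These differences were not tested, since each fraction has a single value.

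**Figure D1:**
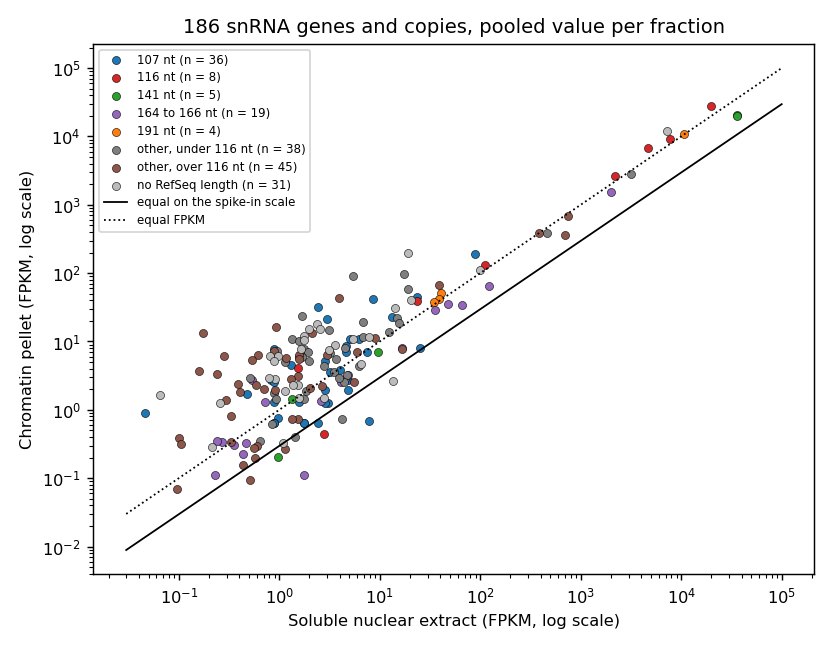
Pellet FPKM against soluble FPKM for the 186 members, both on log scales, coloured by RefSeq length; the solid line marks equality on the spike-in scale and the dotted line equal FPKM. Members above 1000 FPKM follow the dotted line, while members below 10 FPKM spread widely around it.

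A few genes carried nearly all of the signal. The 3 members of largest mean FPKM held 68.9% of the members' soluble sum and 57.5% of their pellet sum, and the first 10 held 97.3% and 96.6%. These 10, all at 1000 FPKM or more, had log2 folds from 0.88 to 2.47. Of them 8 were higher and 0 lower (80.0% higher, median 1.91), against 80.0% higher over all 95 loci at that level (median 3.06), so the most abundant members did not lie further towards the pellet than other loci at their level. At 0.5 to 1 FPKM the medians were 1.30 for 13 members and 1.23 for all loci. At 1 to 10 FPKM they were 2.72 for 107 members and 0.59 for all loci, at 10 to 100 FPKM 2.49 for 30 members and 0.07 for all, and at 100 to 1000 FPKM 1.83 for 8 members and -0.66 for all. On the FPKM scale the 10 most abundant members ran from -0.88 to 0.71. Of them 6 were higher in the pellet, 4 higher in the soluble fraction and 0 at 2-fold or more. The fold of the abundant genes thus spans little beside that of the weak ones.

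Gm24265 and Gm24407, both of 141 nucleotides, had the largest soluble values of the members. They lie next to each other on chromosome 5, at 115489459 to 115489599 and 115490254 to 115490394, with a gap of 654 bases, and the first lies within the RefSeq span of Sirt4, a mitochondrial sirtuin gene. Gm24265 had soluble and pellet FPKM of 35812 and 20401, a log2 fold of 0.94. Gm24407 had 36205 and 19691, a log2 fold of 0.88. The neighbours differed in fold by 0.07, less than the SD of 0.09 of spike-ins with at least 10 FPKM. Whether they share fragments was not tested, and if they do their folds are not independent. Both were within 2-fold on the spike-in scale and on the FPKM scale, where they turn to -0.81 and -0.88. None of the named RefSeq snRNA genes compared here has this length. The other 3 members of 141 nucleotides had 0.59 to 8.35 FPKM and log2 folds from -0.50 to 1.85.

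Members of 116 nucleotides, the length of the U5 gene Rnu5g, lay further towards the pellet. Gm25099 had soluble and pellet FPKM of 19624 and 27698, the largest pellet value of the members, with a log2 fold of 2.25. It opens a row of 3 such genes on chromosome 4, between 117189942 and 117210959, outside all RefSeq protein-coding spans. Its neighbour Gm23143 had 7792 and 9300 FPKM, a log2 fold of 2.01, and Gm23287 had 4686 and 6837, a log2 fold of 2.30. The 3 neighbours thus differed more in level than in fold. A further gene of this length, Gm22265, on chromosome 1 from 192745571 to 192745686, had 2194 and 2678 FPKM, a log2 fold of 2.04. It lies within Hhat, an acyltransferase gene of hedgehog signalling, which had only 0.06 and 0.13 FPKM. Rnu5g itself, on chromosome 9, had 23.5 and 38.5 FPKM, a log2 fold of 2.47. Gm25313, 5038 bases away, had 112.1 and 131.2, a log2 fold of 1.98. The 6 members of 116 nucleotides with a mean of at least 10 FPKM ran from 1.98 to 2.47 (SD 0.19), although their levels differed by up to 763-fold. The 2 weakest, Gm23102 at 3.18 and Gm24043 at -0.88, left that range. Copies that share fragments would not give independent folds, and sharing among these members was not tested.

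The abundant genes of 116 and 141 nucleotides did not overlap in fold. The 4 of 116 nucleotides at 1000 FPKM or more had a mean log2 fold of 2.15, and the 2 of 141 nucleotides had 0.91. The difference of 1.24, or 2.36-fold, is the same on both scales, because the factor cancels. The smallest gap between the sets was 1.07, against an SD of 0.09 over the 18 spike-ins with at least 10 FPKM, a technical scatter only. None of those spike-ins had a mean of 1000 FPKM, the highest being 872. In the soluble fraction the pair of 141 nucleotides stood highest, and in the pellet Gm25099 did. No replicate value is at hand to set against this difference. The 2 genes of 141 nucleotides are neighbours, and those of 116 include the row on chromosome 4. Genes that share fragments are not independent measurements, and sharing was not tested. Without the cut at 1000 FPKM the lengths overlapped, from -0.88 to 3.18 at 116 nucleotides and from -0.50 to 1.85 at 141.

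**Figure D2:**
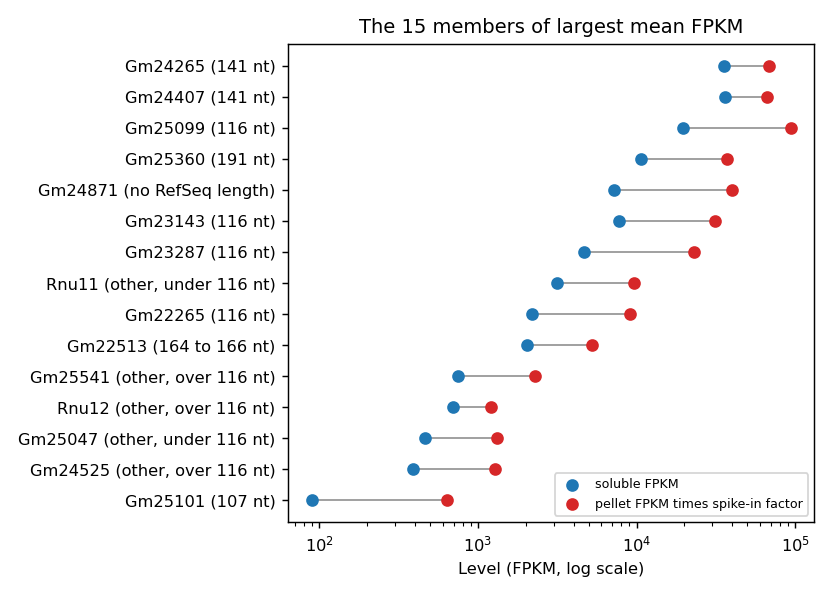
The 15 members of largest mean FPKM with their RefSeq length, soluble FPKM in blue and pellet FPKM times the spike-in factor in red on a log scale. The gap between the dots is the fold; it is widest among the genes of over 1000 FPKM for Gm24871 and narrow for the pair of 141 nucleotides and for Rnu12.

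Gm24871 had soluble and pellet FPKM of 7222 and 11855. Its log2 fold of 2.47 was the highest of the 10 abundant members. The table places it in a locus of 4183 bases on chromosome 1, from 171500568 to 171504750, and RefSeq does not list the symbol. A single unnamed snRNA entry of RefSeq lies in that locus, from 171503048 to 171503163, and is also 116 nucleotides long.

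Members of 191 nucleotides agreed closely in fold. RefSeq gives 187 nucleotides for Rnu2-10, a U2 gene, and none of the named genes compared here is 191 long. Gm25360, on chromosome 1 from 72226240 to 72226430, had soluble and pellet FPKM of 10629 and 11034, a log2 fold of 1.81. The other 3, on chromosomes 8, 12 and X, had 36.3 to 46.2 FPKM on average. All 4 were higher in the pellet, from 1.81 to 2.07 (SD 0.12), at levels that differed 298-fold. The SD of spike-ins with at least 10 FPKM was 0.09. Copies that share fragments would not give independent folds, and whether the 3 weaker ones carry fragments of Gm25360 was not tested.

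Members of 164 to 166 nucleotides, the lengths of the named U1 genes, had a lower median than those of 107, 116 or 191 nucleotides. Of 19 such members 13 passed the level filter, with 8 higher and 1 lower (median 1.10, or -0.65 by FPKM alone, where it is further from 0 than the medians of those lengths). Gm22513, on chromosome 12 from 54696782 to 54696945, had soluble and pellet FPKM of 2024 and 1548, a log2 fold of 1.37. Rnu1b6, a U1b gene on chromosome 3, had 47.6 and 35.3 FPKM, a log2 fold of 1.32. Rnu1b1, in the same stretch of chromosome 3, had 4.13 and 2.59, a log2 fold of 1.08. The 6 of these members with at least 10 FPKM ran from 0.68 to 1.47 (SD 0.35), below every member of 116 or 191 nucleotides at that level. Weak members of these lengths departed both ways. At the low end was Gm25818, with 1.78 and 0.11 FPKM and a log2 fold of -2.22, the lowest of all members. It lies inside the transcription factor gene Creb5. At the high end was Gm24622, with 0.54 and 2.76 FPKM and a log2 fold of 4.11.

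The minor spliceosome RNAs named in the table stood further apart in fold than the copies of 116 or 191 nucleotides at 10 FPKM or more. Rnu11, on chromosome 4 from 132270079 to 132270186, had soluble and pellet FPKM of 3157 and 2862, a log2 fold of 1.61. A second identifier of the same name, typed as a long intergenic RNA, had 10.7 and 9.67 FPKM and the same log2 fold of 1.61. Rnu11 shares its deposited coordinates with another identifier, so this match is not taken as a second observation. Whether the identifiers of this name divide the same fragments was not tested. Rnu12, on chromosome 15 from 83149645 to 83149794, had 693.1 and 356.8 FPKM, a log2 fold of 0.80. On the spike-in scale it was the only one of the 5 family-named members within 2-fold. On the FPKM scale all 5 were, from -0.96 for Rnu12 to 0.71 for Rnu5g. The difference between Rnu11 and Rnu12, whose RNAs act in 1 particle, was larger than the scatter of spike-ins, and there is no replicate check. Of the predicted genes at 100 to 1000 FPKM, Gm25541 (126 nucleotides) had 743.5 and 678.8 FPKM, a log2 fold of 1.62. Gm24525 (151 nucleotides) had 387.3 and 380.4, a log2 fold of 1.73. Gm25047 (104 nucleotides) had 464.0 and 389.0, a log2 fold of 1.50. Gm22392, without a RefSeq length, departed from the rest at this level with 19.0 and 199.8 FPKM, a log2 fold of 5.15. Gm22710, also without a length, had 99.6 and 111.9, a log2 fold of 1.92. The locus of Gm22392 holds a single unnamed snRNA entry of RefSeq, of 107 nucleotides, and that of Gm22710 holds none.

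**Figure D3:**
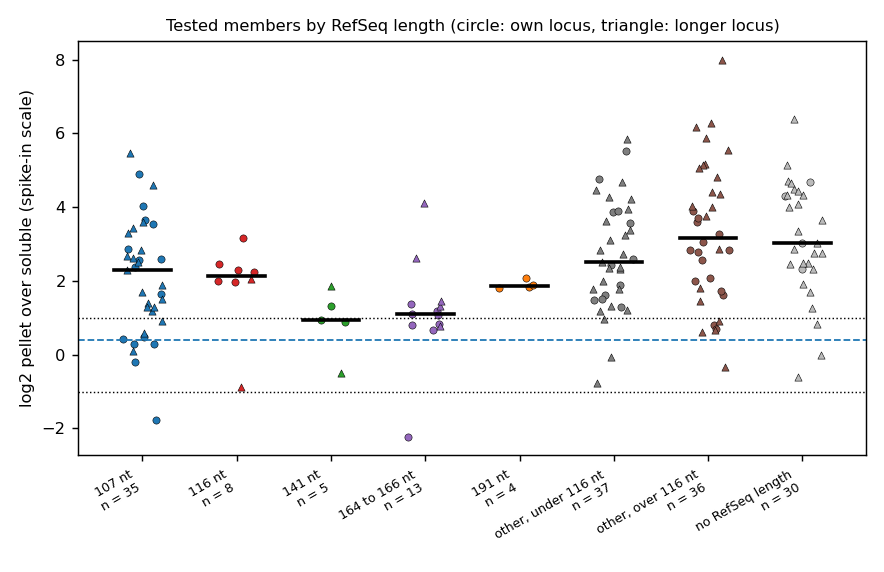
The log2 fold on the spike-in scale for the 168 tested members by RefSeq length, with bars at the medians, dotted lines at 2-fold and a dashed line at the median of all tested loci (0.41). Circles are members with a locus of their own and triangles those merged into a longer locus; members of 191 nucleotides lie closest together, from 1.81 to 2.07, and those of 107 nucleotides spread over both sides of 0.

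Rnu6 itself is not a member, so its own level is not given here. Members of 107 nucleotides, the length of Rnu6, were numerous and low, with 36 members in all. None reached 1000 FPKM, and together they held 0.19% of the members' soluble sum and 0.39% of their pellet sum. Of 35 tested, 26 lay higher in the pellet, and 1 was lower (median 2.30, or 0.54 by FPKM alone). The highest level belonged to Gm25101, with 89.5 FPKM in the soluble fraction, 189.0 in the pellet and a log2 fold of 2.83. It lies inside Cdh12, a cadherin gene listed at under 0.01 FPKM in both fractions. The 7 members of this length with at least 10 FPKM spread from 0.10 to 5.46 (SD 1.75), against SDs of 0.19 at 116 and 0.12 at 191 nucleotides. The 1 lower member was Gm25404, with 7.87 and 0.68 FPKM and a log2 fold of -1.77.

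Some low members of 107 nucleotides shared a value. The soluble value of 0.88 FPKM recurred in 4 of the 36 members, and 1.76, which is 2 times as much within 0.01%, in 2 of them. Soluble values of 2.88 and 4.64 FPKM, which are 3.27 and 5.27 times as much, were each shared by 2 members. In the pellet 0.636 FPKM recurred in 3 members and 0.645 in 2. The values of 0.88 and 0.636 were the smallest values among members of this length with a locus of their own. Members merged into a longer locus went lower, such as Gm26411 with 0.47 soluble FPKM. Of the 35 tested members, 17 had a value at or under 2 times the smallest one in at least 1 fraction, and 31 at or under 10 times. Whether these values stand for single fragments was not tested. The SD of the log2 fold was 1.80 over the 120 tested members below 10 FPKM and 0.56 over the 10 at 1000 FPKM or more.

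The extremes of fold were all members below 100 FPKM. Among those with a mean of at least 1 FPKM, Gm25177 was highest, with 0.18 FPKM in the soluble fraction, 13.2 in the pellet and a log2 fold of 7.99. Gm25783 followed at 6.30, Gm23054 at 6.19, Gm24041 at 5.87 and Gm25549 at 5.84. Of these 5, Gm25549 alone had more than 1 FPKM in the soluble fraction, with 5.37 soluble and 91.5 pellet FPKM, and RefSeq types it as a pseudogene. The lowest were Gm25404 and Gm24043, already given, then Gm24646 at -0.78, Gm27995 at -0.62 and Gm25815 at -0.19. Only Gm25404 of these was past 2-fold.

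All 5 of the highest lay inside protein-coding genes. On the spike-in scale the shares past 2-fold were similar inside and outside, while the upper quartile was 3.99 inside and 2.85 outside. Of 74 tested members inside a coding span 59 were higher and 1 was lower (median 2.43), and of 64 outside 52 were higher and 1 was lower (median 2.08). By FPKM alone 33 were higher and 10 lower inside (median 0.68), and 19 higher and 8 lower outside (median 0.33). The 30 tested members without a RefSeq position (median 3.04) are in neither group. In the deposited table, 111 members were merged into a longer locus and 75 had a locus of their own, under 300 bases. The 101 tested members in longer loci included 85 higher and 0 lower (median 2.68), and the 67 with their own locus 53 higher and 2 lower (median 2.07). Of members that RefSeq types as pseudogenes 24 of 27 were higher and 0 lower (median 3.07), and of those it types as snRNA 87 of 111 were higher and 2 lower (median 2.04). Both sides of each split lay above the median of all tested loci.

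For 66 members the gene around the copy could be found at the same deposited locus, and in 49 pairs both reached 0.5 FPKM. The table used for positions gives no strand, so sense and antisense copies are not separated. In these pairs the copy had a median log2 fold of 2.86 and the gene around it 0.85, and the copy was the higher of the pair in 43 of 49. It was at least 2-fold above the gene in 35 pairs and at least 2-fold below in 5. Over all 66 pairs, with no filter, the copy was the higher in 51, with 40 at least 2-fold above and 11 below. In the 10 pairs of a tested copy and a gene below 0.5 FPKM, the copy was the higher in 6. There 3 were at least 2-fold above and 3 below. Gm25177 (7.99) lies in Tbc1d5, a Rab GTPase regulator gene with 7.12 soluble and 3.83 pellet FPKM and a log2 fold of 0.86. Gm25549 (5.84) lies in Mapkapk2, a stress kinase gene with 74.1 and 22.3 FPKM and 0.02. In mean FPKM the copy stood above the gene in 12 of the 49 pairs.

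Across the 49 pairs the fold of the copy did not track the fold of the gene, with a Pearson r of -0.15 and a Spearman rho of -0.10. The levels of copy and gene were weakly related, with a Pearson r of 0.33 between log2 mean FPKM values and a Spearman rho of 0.28. These are descriptions over pairs that share libraries. The part of unspliced RNA of the surrounding gene in these values was not tested. A further 10 tested members lay in genes below 0.5 FPKM, and their folds ran from -0.88 to 4.11 around a median of 1.58 (6 higher, 0 lower). Gm22265 in Hhat and Gm25101 in Cdh12, described above, are 2 of these. Gm26110, of 165 nucleotides, is another: it had 66.5 and 33.9 FPKM and a log2 fold of 0.78 inside Fcgr4, an Fc receptor gene at under 0.01 FPKM.

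**Figure D4:**
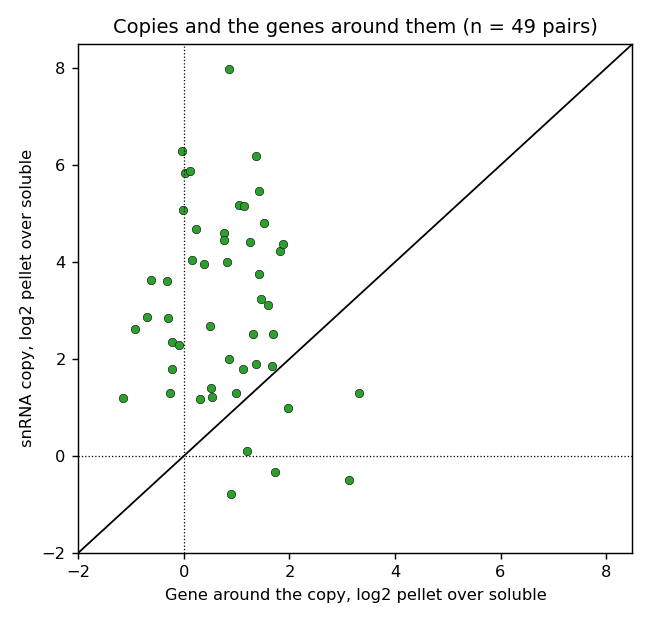
The log2 fold of each snRNA copy against that of the gene around it, both on the spike-in scale, for the 49 pairs in which both reached 0.5 FPKM; the line marks equal folds. The points stand above the line in 43 pairs, and the genes stay within a narrower range than the copies.

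Messages for the proteins that bind, build and mature snRNAs had no common side on the spike-in scale. Over all lists, 128 loci were tested, with 20 at least 2-fold higher in the pellet and 20 lower (15.6% each, median 0.04). All of them are protein-coding, and of the 11397 tested protein-coding loci 24.0% were higher and 10.6% lower (median 0.26). Over all loci tested the shares were 31.9% and 10.5% (median 0.41). On the FPKM scale 257 of the protein-coding loci were higher and 7770 lower, and of all loci 9.66% and 61.2%. Of the list loci 0 were higher there and 105 of 128 lower. Every call towards the pellet below therefore holds on the spike-in scale alone.

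Most Sm genes lay towards the soluble fraction. Of 7 tested Sm genes 5 were lower and 0 higher (median -1.27). Snrpg had soluble and pellet FPKM of 91.3 and 8.20, a log2 fold of -1.72, and Snrpd2 had 81.2 and 7.39, a log2 fold of -1.70. Both encode core subunits of the Sm ring. Of 10 LSm genes 3 were lower and 0 higher (median -0.87). Lsm4 had the lowest fold at -2.24 (240.5 and 15.1 FPKM), followed by Lsm7 at -1.38. The other 7 stayed within 2-fold, with Lsm11 on the pellet side at 0.46.

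Genes for the U1 particle were split. Of 8 tested, 4 were higher and 1 lower (median 1.11). Prpf39, a U1-associated splicing factor, had soluble and pellet FPKM of 7.69 and 15.2, a log2 fold of 2.74, and Luc7l2 had 2.46. Of the protein genes named here as past 2-fold, Prpf39, Luc7l2, Rnpc3, Zmat5, Txnl4a, Snapc3, Snapc4, Ints2 and Ints6 share their deposited coordinates with another identifier. Snrpc, which encodes the U1-specific C protein that stabilises pairing with the donor site, had -1.49. Of the 14 U2 genes 1 was higher and 2 were lower (median -0.43). Sf3b1, the large branch point subunit, had 1.09, while the small subunit genes Sf3b5 and Sf3b6 had -1.59 and -1.01. The 16 tri-snRNP genes stayed within 2-fold apart from Txnl4a at -1.35, with a median of 0.03. Minor spliceosome genes had 3 of 11 higher and 2 lower, with Rnpc3 at 2.43, Snrnp48 at 1.64, Snrnp25 at -1.52 and Zmat5 at -1.03.

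Of the factors listed for snRNA transcription, a mix of the promoter complex SNAPc, general factors and elongation factors, 8 of 13 were higher and 2 lower (median 1.27, or -0.49 by FPKM alone). Calls went both ways within SNAPc. Snapc4, its DNA-binding subunit, had soluble and pellet FPKM of 6.07 and 10.5, a log2 fold of 2.55, and Snapc3 had 2.31. The subunit genes Snapc5 and Snapc2 had -1.61 and -1.03, and Snapc1 stayed within 2-fold at 0.36. Of 16 genes of Integrator, which cleaves the 3′ end of nascent snRNAs, 2 were higher (Ints2 at 2.10 and Ints6 at 1.67) and 0 lower, with a median of 0.35.

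Assembly and maturation genes centred near balance. Of 18 genes for export, assembly and import 1 was higher and 3 were lower (median -0.01). Tgs1, which hypermethylates the snRNA cap, had 1.61, and the SMN complex genes Gemin6 and Gemin7 both had -1.17. Of 15 genes for maturation and recycling, Tut1, the U6 uridylyltransferase, was higher at 1.06 and Nop10 was lower at -1.62. The median of that list was 0.14.

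**Figure D5:**
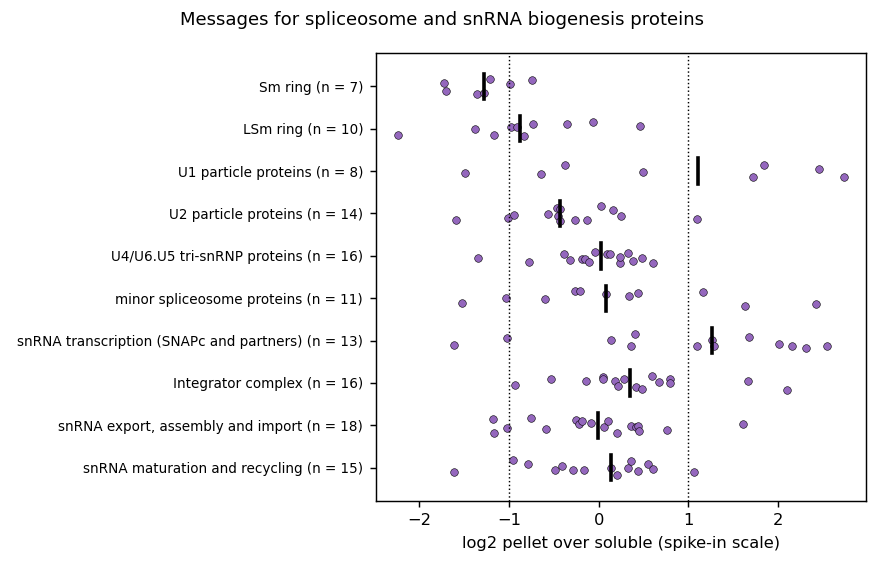
The log2 fold on the spike-in scale for each tested gene of the 10 protein lists, with bars at the medians and dotted lines at 2-fold. Sm genes sit left of 0, 8 of the 13 snRNA transcription genes lie past the line at 1, and tri-snRNP genes gather around 0.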

How the data were processed

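The 6 libraries are 3 chromatin pellet extracts and 3 soluble nuclear extracts of HL-1 cells, rRNA-depleted and strand-specific per the labels' protocols. The submitters' processing notes list mm10 with HISAT2, Cufflinks, Cuffdiff, SAMtools and bedtools; the sources used here give no versions or settings. Per the file headers, the authors deposited 1 FPKM value per fraction. The rescaled pellet signal and total signal, their ratio (chromatin enrichment) and log10 of both were also deposited; they were not used for the values here.

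Of 30687 lines, 1945 repeated an identifier and were dropped. The factor was recomputed from 82 spike-ins, and folds use no pseudocount, as 0 values were 0. Tested loci had a mean of 0.5 FPKM or more and were set against a 2-fold threshold; with 1 value per fraction no p-value was possible. Identifiers whose locus was under 300 bases count as having their own locus. The plan foresaw families from product names or sequences, which were not used here; RefSeq lengths replaced them, chosen with the levels known. Starts are 1-based. Named members are all family-named ones tested, the 10 others of largest mean, and the 5 highest and 5 lowest folds at 1 FPKM or more; of each protein list, up to 2 past 2-fold each way. Gm25047, Gm24525, Gm25313, Gm23102, Gm25818, Gm24622, Gm25101, Gm26110, Gm22392, Gm22710, Gm26411, Lsm11 and Snapc1 were named after their values were seen. Members and lists were chosen with earlier results of these data known. Python 3.11.15, pandas 2.3.3 and numpy 2.4.6 were used, and the steps were tested on simulated data.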

Additional observations from a re-analysis of the deposited data

How the results depend on the processing

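No paired analysis was possible because the replicates of a fraction stand in 1 pooled value; for the same reason leaving out each replicate was not run. Without the spike-in factor, 69 members were higher and 20 lower (median 0.71). There the medians became 0.54 at 107 nucleotides, 0.39 at 116, -0.81 at 141, -0.65 at 164 to 166, 0.11 at 191, 0.76 at other lengths under 116, 1.41 at other lengths over 116 and 1.28 for members without a RefSeq length, while the protein lists had 0 higher and 105 lower. With no level filter the median over members was 2.33, and 2.85 for other lengths over 116 nucleotides. With a mean of at least 5 FPKM, 65 of 74 members were higher and 0 lower, and the medians were 2.65 at 107 nucleotides, 2.09 at other lengths over 116 and 2.92 at other lengths under 116. At 4-fold 100 of 168 members were higher and 1 was lower. A pseudocount of 1 FPKM gave a median of 2.08. Leaving out loci with shared coordinates left 55 of 70 members higher, with a median of 2.04. Among alternatives chosen after seeing the data, members typed as snRNA by RefSeq gave 87 of 111 and 2.04, and members with their own locus 53 of 67 and 2.07. Without the 14 loci that are among the 10 largest of either fraction, 3 of them members, the members' share was 6.94% of the soluble sum and 10.1% of the pellet sum. Depth per locus is unknown, so the counting error of weak members could not be estimated.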
